A study of Homo sapiens with 18 samples.

Results

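The genes compared here carried editing sites in both YTHDF3-ADAR and YTHDF2-ADAR cells: they are the 4228 gene names listed in both of the authors' editing tables, out of 7042 names in the YTHDF3-ADAR table, 4547 in the YTHDF2-ADAR table and 8714 in any of the series' 3 tables. They made up 60.0% of the YTHDF3-ADAR table and 93.0% of the YTHDF2-ADAR table. Of the shared names, 4224 matched one gene ID in the count table, and all of these were protein coding. The other 4 (ARMCX5-GPRASP2, CYB561D2, MATR3 and POLR2J3) matched more than one, so they have editing values but no RNA level here.

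The cells were HEK293T, a human embryonic kidney line, carrying either YTHDF3-ADAR or YTHDF2-ADAR in a HyperTRIBE design. Both constructs were switched on with doxycycline (1 µg/mL, 24 h), and both lines then received cycloheximide (100 µg/mL, 10 min), which holds ribosomes on mRNA. Total RNA was sequenced in 3 libraries per construct after removal of ribosomal RNA, with a kit that keeps strand. A library without a fusion protein was not among the samples, so no background level of editing could be set beside the values. The labels do not say whether a line is 1 clone or whether the replicates are separate cultures, so the spread between libraries may be technical. Replicate 1 stood apart in both groups: the chi-square per degree of freedom of gene counts was 143 and 137 between it and the other YTHDF3-ADAR libraries, against 16.9 between those, and 76.2 and 57.4 between it and the other YTHDF2-ADAR libraries, against 6.96 between those.

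YTHDF3 and YTHDF2 are cytoplasmic proteins whose YTH domain binds N6-methyladenosine (m6A), a methylated base of mRNA. YTHDF2 is best known for bringing the CCR4-NOT deadenylase to its targets, which shortens their life, and YTHDF3 has been tied to both translation and decay alongside the other YTHDF proteins. In HyperTRIBE an RNA-binding protein is joined to the deaminase part of an ADAR enzyme, which turns nearby adenosines into inosines that read as G, so that A-to-G changes mark RNAs the fusion has met.

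For each gene and construct, the authors' tables give the number of editing sites and a total RNA editing score that never exceeded the number of sites. The score divided by the number of sites is called editing per site here, in percent. It behaves as the mean edited share of a site, although the tables do not define it. Each of these is 1 value over the replicates, with no spread and unknown depth, so the editing values are described without a test. Site positions are not in the tables, and whether the sites of a gene are the same adenosines in both constructs was not analysed here.

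Among the genes that encode YTHDF and ADAR proteins, ADARB1 differed most in level between the lines. ADARB1, which encodes the deaminase ADAR2, stood at 1080, 1639 and 1651 CPM (counts scaled by library total and TMM factor) in the YTHDF3-ADAR libraries, against 40.5, 38.7 and 37.5 CPM in the YTHDF2-ADAR libraries. The groups were far apart, and YTHDF3-ADAR replicate 1 was below the other 2 of its group. The mean was 1456 ± 326 CPM in YTHDF3-ADAR and 38.9 ± 1.55 CPM in YTHDF2-ADAR cells (SD, n = 3 each), a 37.5-fold difference (log2 fold change 5.23 ± 0.16 SE, edgeR quasi-likelihood adjusted p = 5.64e-12, with Benjamini-Hochberg adjustment over all genes tested as in every edgeR value here). YTHDF1-ADAR total RNA lay between them at 247 ± 17.7 CPM. The log2 fold change was 5.37 without YTHDF3-ADAR replicate 1 and 5.26 without YTHDF2-ADAR replicate 1. The labels do not say which ADAR gene the deaminase came from or with which codons, and the counts cannot tell a transgene from the gene of the cell, so these are totals per gene and not levels of a fusion RNA. Construct and ADARB1 level cannot be told apart in this design, and the part of that level in the editing values was not tested.

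YTHDF3 was higher in its own line. It stood at 87.5, 68.7 and 73.7 CPM in YTHDF3-ADAR libraries, against 45.5, 56.1 and 52.2 CPM in YTHDF2-ADAR libraries, without overlap (log2 fold change 0.58 ± 0.12, edgeR adjusted p = 0.00422). With the 6 compared libraries fitted alone that adjusted p was 0.0583. YTHDF2 was lower in YTHDF3-ADAR libraries, at 147, 122 and 117 CPM, against 276, 288 and 260 CPM in the YTHDF2-ADAR libraries that carry its fusion (-1.10 ± 0.13, edgeR adjusted p = 7.98e-05). ADAR, which encodes ADAR1, averaged 319 ± 5.71 CPM in YTHDF3-ADAR and 305 ± 9.46 CPM in YTHDF2-ADAR cells and was not called different (0.07 ± 0.09, edgeR adjusted p = 0.623). ADARB2 was too low to test.

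**Figure D1:**
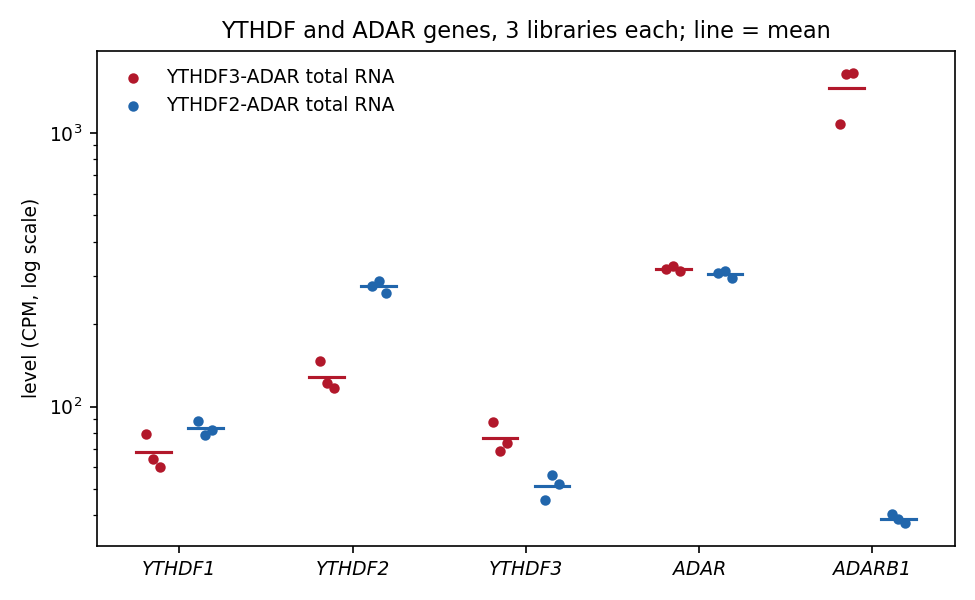
Total RNA level of the YTHDF and ADAR genes, as CPM on a log scale, with a point for each of 3 libraries per construct and a line for the mean; YTHDF3-ADAR is to the left of YTHDF2-ADAR in each pair. ADARB1 shows the widest gap of the 5 genes, at 1456 CPM in YTHDF3-ADAR and 38.9 CPM in YTHDF2-ADAR cells, while ADAR is nearly level.

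ADARB1, YTHDF3 and YTHDF2 were themselves listed in both tables. ADARB1 had 8 sites listed at 95.2% per site in YTHDF3-ADAR cells and 4 at 12.7% in YTHDF2-ADAR cells. No source used here gives the transgene sequences, so in these 3 genes an edit cannot be told apart from a base that differs between a transgene and the genome. YTHDF3 had 10 sites at 1.28% in YTHDF3-ADAR and 1 site at 0.448% in YTHDF2-ADAR cells. YTHDF2 had 1 site in each, at 0.945% in YTHDF3-ADAR and 2.48% in YTHDF2-ADAR cells.

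Shared genes carried about 2 times as many sites in YTHDF3-ADAR cells. The 4228 genes held 41876 sites in YTHDF3-ADAR and 21077 in YTHDF2-ADAR cells, a ratio of 1.99, with a median of 7 sites per gene in YTHDF3-ADAR and 3 in YTHDF2-ADAR cells. More sites under YTHDF3-ADAR were listed for 3437 genes (81.3%), the same number for 581 and fewer for 210. The number was at least 2-fold higher in 2289 genes (54.1%) and at least 2-fold lower in 88 (2.08%).

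Both ends of the distribution of site numbers differed between the constructs. A single site was listed for 358 genes in YTHDF3-ADAR and for 1216 genes in YTHDF2-ADAR cells, and 20 or more sites for 523 genes in YTHDF3-ADAR and 131 in YTHDF2-ADAR cells. Genes with 1 YTHDF2-ADAR site had a median of 3 YTHDF3-ADAR sites. Among the 1446 genes with at least 5 sites in both, the median ratio was 1.59, and with at least 10 in both the median log2 ratio was 0.49, against 1.00 over all shared genes. Site numbers per gene went together between the constructs (Pearson r 0.72 across 4228 genes, which share libraries, length and level and are not independent).

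**Figure D2:**
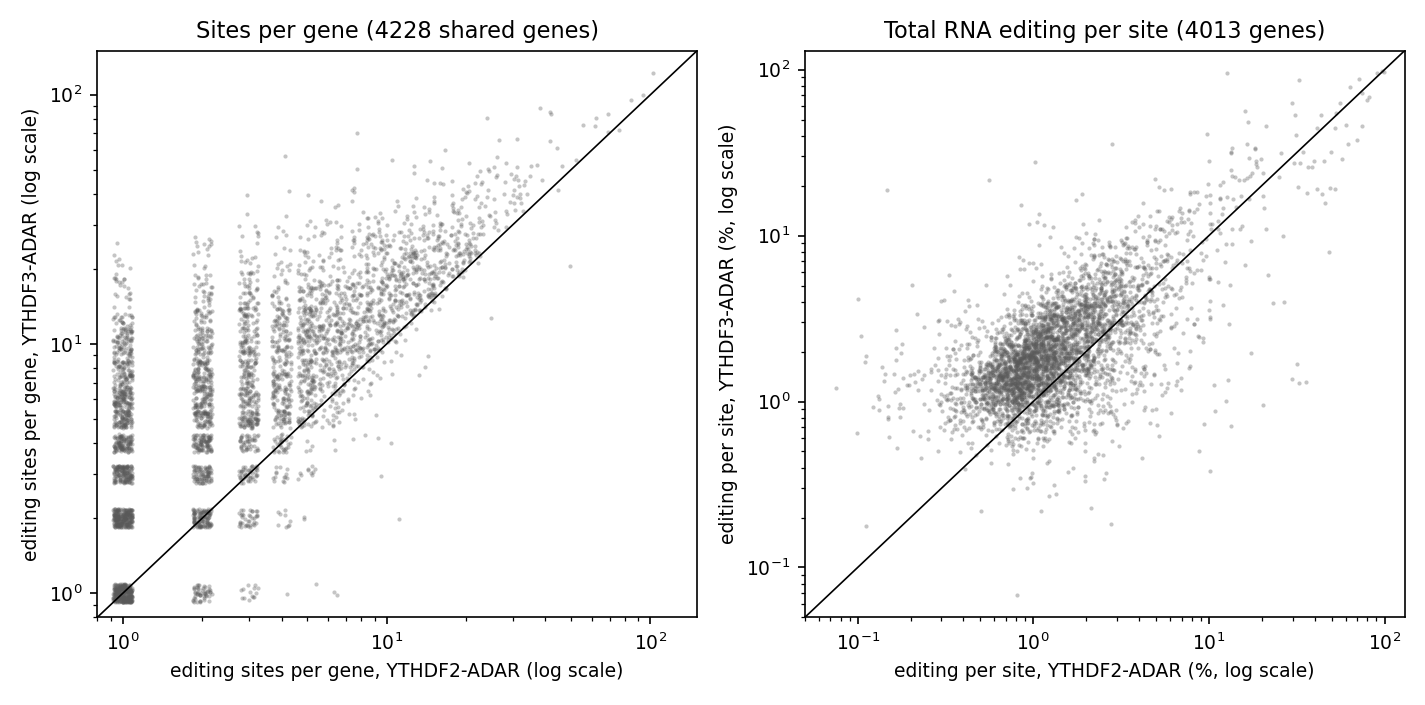
Left, editing sites per gene in YTHDF3-ADAR (vertical) against YTHDF2-ADAR (horizontal) for 4228 shared genes, with a small random shift so that equal counts can be seen; right, total RNA editing per site in percent for the 4013 genes above 0 in both. Both axes are log scales, each point is a gene and the line marks equal values; most points lie above it in both panels, with 81.3% of genes having more sites and 77.6% more editing per site under YTHDF3-ADAR.

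The total RNA score, which grows with both the number of sites and their editing, summed to 1634 over the shared genes in YTHDF3-ADAR and to 554 in YTHDF2-ADAR cells. The median score was 0.144 in YTHDF3-ADAR and 0.0372 in YTHDF2-ADAR cells. A score above 0 in both was available for 4013 genes, and its median ratio was 3.09. It was at least 2-fold higher in 2849 of them (71.0%) and at least 2-fold lower in 141 (3.51%). The score was missing for 4 genes in YTHDF3-ADAR and 73 in YTHDF2-ADAR cells, and listed at 0 for 12 genes in YTHDF3-ADAR and 127 in YTHDF2-ADAR cells. No gene was at 0 in both.

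Editing was also higher per site. Its median was 1.90% per site in YTHDF3-ADAR cells (quartiles 1.28% and 3.22%) and 1.19% in YTHDF2-ADAR cells (quartiles 0.785% and 2.08%). Gene by gene the median ratio was 1.61, the median difference was 0.687 percentage points, and 3116 of 4013 genes (77.6%) were higher in YTHDF3-ADAR cells. At least a 2-fold higher value was found in 1372 genes (34.2%) and at least a 2-fold lower one in 220 (5.48%). Of those 220 genes, 130 had a single YTHDF2-ADAR site.

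With more sites behind each value the difference between constructs was wider and more even. Among 1427 genes with at least 5 sites in both, editing per site was higher in YTHDF3-ADAR cells for 1286 (90.1%), at a median ratio of 1.81, with 577 genes at least 2-fold higher and 11 at least 2-fold lower. The median ratio was 1.32 for genes with 1 YTHDF2-ADAR site, 1.52 with 2 to 4, 1.75 with 5 to 9, 1.86 with 10 to 19 and 1.99 with 20 or more. Editing per site of a gene in one construct went with that in the other (r 0.65 across 4013 genes, and 0.81 across the 1427 with at least 5 sites in both).

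The ratios of the 2 measures were nearly unrelated across genes. Both were higher in 2622 genes, while 642 had more sites with lower editing per site under YTHDF3-ADAR. The 544 genes with equal site numbers had a median ratio of editing per site of 1.32, and the 205 with fewer sites in YTHDF3-ADAR cells one of 1.38. Of the 96 genes with equal numbers of at least 5 sites, 81 had higher editing per site in YTHDF3-ADAR cells, at a median ratio of 1.79. The log2 ratios of site number and of editing per site had a Pearson r of 0.03 across 4013 genes.

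**Figure D3:**
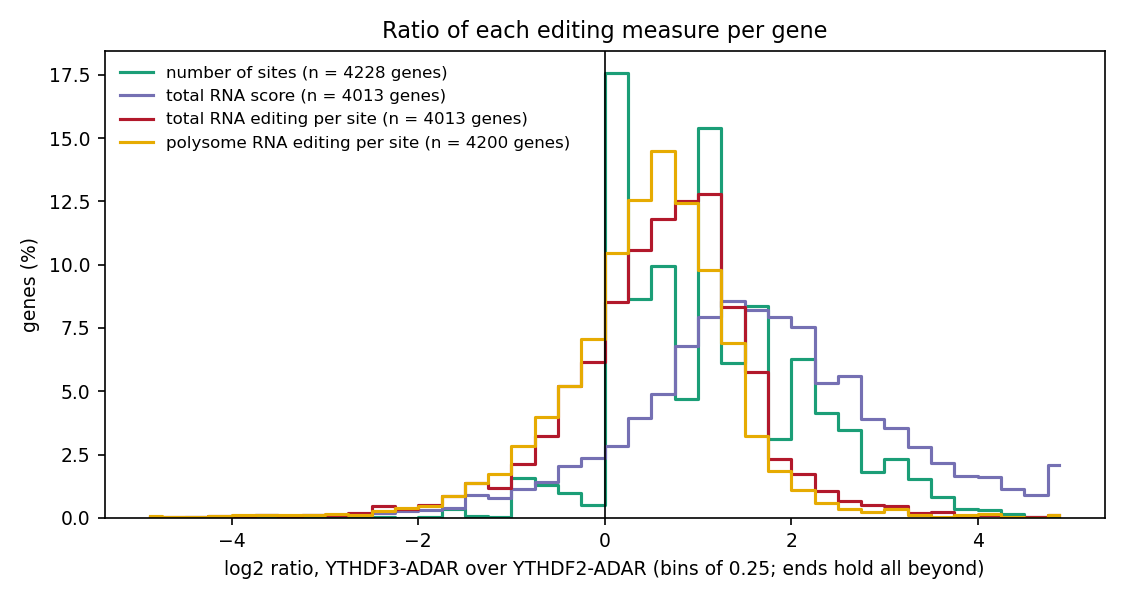
Share of genes (percent, vertical) by log2 ratio of YTHDF3-ADAR over YTHDF2-ADAR (horizontal, bins of 0.25) for the number of sites, the total RNA score, and editing per site in total and in polysome RNA. The medians are 1.00, 1.63, 0.69 and 0.53, and the steps in the curve of sites come from small whole numbers.

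Library totals overlapped, while reads of the shared genes were more in YTHDF3-ADAR cells. YTHDF3-ADAR total RNA libraries held 49080156 to 54935177 counts and YTHDF2-ADAR ones 43291966 to 58048768, and the shared genes had a median of 1.19 times as many reads in YTHDF3-ADAR cells, with fewer reads in YTHDF2-ADAR cells for 3276 of 4224. Among the 948 genes with at least as many reads in YTHDF2-ADAR cells, a set chosen after the data were seen, the median log2 ratio was 1.00 for sites and 0.92 for editing per site, against 1.00 and 0.69 over all shared genes. Split into 5 equal sets by level per kilobase of exon, the median ratio of editing per site lay between 1.51 and 1.65, and by exon length between 1.53 and 1.67. It was 1.25 in the set with the largest read ratios of YTHDF3-ADAR over YTHDF2-ADAR and 1.90 in the set with the smallest.

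Some genes carried dense editing in both lines. ATP2B1, a calcium pump of the plasma membrane (chromosome 12, 89588049 to 89709300, GRCh38, the bounds of its counted exons here and below), led both tables of shared genes with 117 sites in YTHDF3-ADAR and 101 in YTHDF2-ADAR cells, and its editing per site was 13.2% in YTHDF3-ADAR and 4.60% in YTHDF2-ADAR cells. SPTAN1, the non-erythroid alpha spectrin (chromosome 9, 128552558 to 128633662), had 105 sites at 3.27% in YTHDF3-ADAR and 92 at 1.66% in YTHDF2-ADAR cells. ALYREF, an mRNA export adaptor (chromosome 17, 81887835 to 81891586), had 96 sites at 7.03% in YTHDF3-ADAR and 87 at 5.78% in YTHDF2-ADAR cells. These 3 genes were close in site number and differed in how far per-site editing was apart, with ratios of 2.87, 1.96 and 1.22.

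Other genes among the 10 with most sites encode parts of the cytoskeleton, chromatin and mRNA export. SPTBN1, a beta spectrin, had 82 sites at 7.04% in YTHDF3-ADAR and 66 at 3.32% in YTHDF2-ADAR cells, MYH10, a non-muscle myosin heavy chain, 82 at 1.40% in YTHDF3-ADAR and 64 at 0.667% in YTHDF2-ADAR cells, and CHD3, a NuRD helicase, 76 at 2.63% in YTHDF3-ADAR and 72 at 1.30% in YTHDF2-ADAR cells. NCKAP1, a subunit of the WAVE complex, had 70 sites at 5.19% in YTHDF3-ADAR and 66 at 1.61% in YTHDF2-ADAR cells. THOC5, a subunit of the THO export complex, stood out for sites alone: it had 85 in YTHDF3-ADAR and 38 in YTHDF2-ADAR cells, with editing per site of 4.63% in YTHDF3-ADAR and 4.53% in YTHDF2-ADAR cells.

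Among genes with at least 5 sites in both, the widest gap in site number was in ENSA, an inhibitor of the phosphatase PP2A (chromosome 1, 150600851 to 150629612). It had 70 sites in YTHDF3-ADAR and 8 in YTHDF2-ADAR cells, with editing per site of 3.92% in YTHDF3-ADAR and 2.03% in YTHDF2-ADAR cells. Its RNA level did not set the lines apart, at 241, 200 and 188 CPM in YTHDF3-ADAR and 231, 195 and 200 CPM in YTHDF2-ADAR libraries. MAP4K4, a kinase upstream of JNK, had 37 sites in YTHDF3-ADAR and 5 in YTHDF2-ADAR cells, KIF3A, a kinesin motor, 31 in YTHDF3-ADAR and 5 in YTHDF2-ADAR cells, and TRIO, a guanine exchange factor, 49 in YTHDF3-ADAR and 8 in YTHDF2-ADAR cells. The 10 genes with the highest site ratios had editing per site 1.32 to 2.41 times as high in YTHDF3-ADAR cells.

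HNRNPC went the other way in sites. This nuclear RNA-binding protein, whose access to RNA is known to depend on m6A (chromosome 14, 21209136 to 21269494), had 22 sites in YTHDF3-ADAR and 49 in YTHDF2-ADAR cells, with editing per site of 11.8% in YTHDF3-ADAR and 10.4% in YTHDF2-ADAR cells. UCK2, a uridine-cytidine kinase, had 12 sites at 22.6% in YTHDF3-ADAR and 24 at 14% in YTHDF2-ADAR cells. These were the 2 genes with at least 5 sites in both whose number was at least 2-fold lower. SCAP, the escort of sterol-regulated transcription factors, was lower in both measures, with 8 sites at 1.02% in YTHDF3-ADAR and 13 at 2.15% in YTHDF2-ADAR cells.

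The highest ratios of editing per site came from genes with low YTHDF2-ADAR values. ENC1, an actin-binding Kelch protein (chromosome 5, 74627406 to 74641424), was edited at 18.8% per site over 28 sites in YTHDF3-ADAR cells and at 0.146% over 13 sites in YTHDF2-ADAR cells. BMPR2, a receptor for bone morphogenetic proteins (chromosome 2, 202376327 to 202567751), had 13.5% over 12 sites in YTHDF3-ADAR and 1.08% over 5 in YTHDF2-ADAR cells. PLCL2, a phospholipase C-like protein, had 5.75% over 41 sites in YTHDF3-ADAR and 0.333% over 15 in YTHDF2-ADAR cells. The RNA of ENC1 was nearly level, at 17.4, 12.5 and 12 CPM in YTHDF3-ADAR and 15.5, 14.8 and 14.6 CPM in YTHDF2-ADAR libraries.

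These extreme ratios were smaller on polysomes, the RNA with several ribosomes that the authors sequenced in other libraries of the same lines. Polysome editing of ENC1 was 17.4% per site in YTHDF3-ADAR and 7.77% in YTHDF2-ADAR cells, and that of BMPR2 was 9.03% in YTHDF3-ADAR and 7.40% in YTHDF2-ADAR cells. Of the 10 genes with the highest ratios in total RNA, 5 were lower in YTHDF3-ADAR cells on polysomes. CRMP1, a collapsin response mediator, was one of them: it had 3.04% in YTHDF3-ADAR and 0.321% in YTHDF2-ADAR cells in total RNA, but 2.55% in YTHDF3-ADAR and 7.93% in YTHDF2-ADAR cells on polysomes. The low YTHDF2-ADAR total RNA values of these genes are single numbers of unknown depth. The genes were picked by their total RNA ratio, which by itself favours a smaller ratio in other libraries. These values therefore cannot tell a difference between total and polysome RNA apart from that choice.

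**Figure D4:**
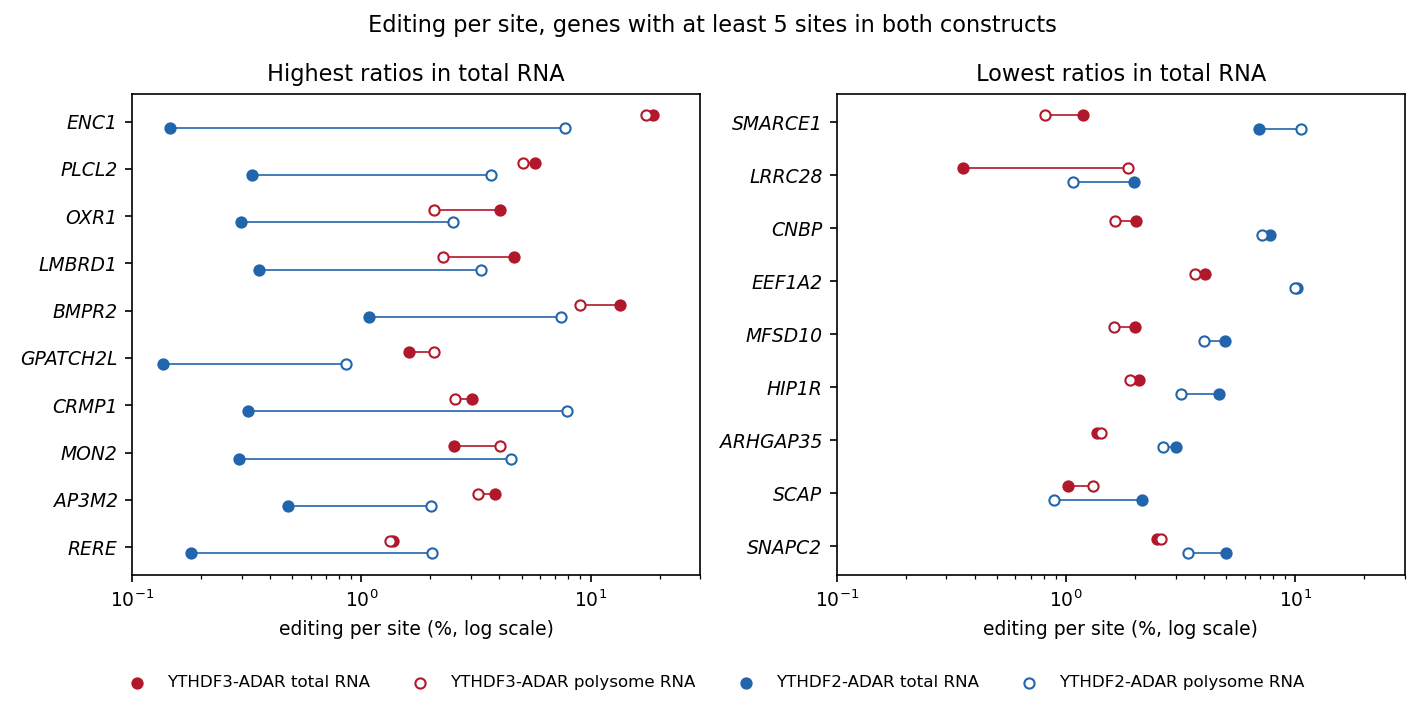
Editing per site in percent (log scale) for the 10 highest (left) and 9 of the 10 lowest (right) ratios of YTHDF3-ADAR over YTHDF2-ADAR in total RNA among genes with at least 5 sites in both; filled points are total RNA and open points polysome RNA, 1 pooled value each. On the left the YTHDF2-ADAR points move right from total to polysome RNA, as for ENC1 at 0.146% and 7.77%, while on the right 7 of the 9 genes drawn stay lower in YTHDF3-ADAR cells in both RNAs. Genes were picked by the total RNA ratio, a choice that by itself favours smaller gaps in polysome RNA.

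A small set was edited less per site in YTHDF3-ADAR cells. SMARCE1, a SWI/SNF remodeller subunit (chromosome 17, 40624962 to 40648654), had 14 sites at 1.18% in YTHDF3-ADAR and 6 at 6.95% in YTHDF2-ADAR cells, and on polysomes 0.807% in YTHDF3-ADAR and 10.6% in YTHDF2-ADAR cells. CNBP, a zinc-finger protein that binds nucleic acid (chromosome 3, 129167827 to 129183922), had 17 sites at 2.02% in YTHDF3-ADAR and 16 at 7.78% in YTHDF2-ADAR cells. Neither SMARCE1 nor CNBP was called different in RNA level by edgeR, with adjusted p of 0.811 and 0.200. MFSD10, HIP1R, SCAP and SNAPC2, also among the 10 lowest ratios, were called higher in level in YTHDF3-ADAR cells. Of all 220 shared genes at least 2-fold lower per site, edgeR called 55 higher in level and 18 lower. Among all shared genes tested these shares were 15.9% and 9.48%, and the part of RNA level was not tested.

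EEF1A2, a translation elongation factor of muscle and nerve cells, had 9 sites at 4.04% in YTHDF3-ADAR and 8 at 10.2% in YTHDF2-ADAR cells, while its RNA was higher in YTHDF3-ADAR libraries. It stood at 48.8, 200 and 201 CPM in YTHDF3-ADAR and 30.6, 20 and 27.5 CPM in YTHDF2-ADAR libraries (log2 fold change 2.53 ± 0.43, edgeR adjusted p = 0.00108). Replicate 1 was the lowest of the YTHDF3-ADAR group and still above the YTHDF2-ADAR group. Of the 11 genes at least 2-fold lower with 5 or more sites in both, 9 were lower on polysomes too; LRRC28 and SCAP were the exceptions.

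The most heavily edited RNAs had median ratios near 1, but single genes lay well to either side. With no library free of a fusion protein, background editing or bases that differ from the genome cannot be told apart from editing by the constructs here. In 34 genes editing per site was at least 20% in both constructs, and there it was higher in YTHDF3-ADAR cells for 15 and lower for 19. Of the 16 with at least 5 sites in both, 5 were higher and 11 lower. The ratio was 0.507 in APLP1 and 2.13 in CAMK2B. Among genes averaging below 10% over both constructs, the median ratio in each bin lay between 1.60 and 1.67, but it was 1.35 for 10 to 20%, 1.17 for 20 to 50% (43 genes) and 1.02 above 50% (15 genes). These bins and the set of 34 genes are cut by the values compared, and a value near 100% leaves little room for a ratio. Asking for 20% in both leaves out OFD1, at 56.5% in YTHDF3-ADAR and 16.1% in YTHDF2-ADAR cells. It also leaves out SEPTIN5, at 18.1% in YTHDF3-ADAR and 36.4% in YTHDF2-ADAR cells. The counts of higher and lower genes in the set therefore depend on that cut.

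Of the 19 genes of these 34 that were lower in total RNA, 13 were also lower on polysomes and 6 were higher there. NDRG4, an NDRG-family protein of brain and heart, had 13 sites in each construct, at 65.2% in YTHDF3-ADAR and 79.9% in YTHDF2-ADAR cells. KIF5A, a neuronal kinesin, had 50 sites at 46.5% in YTHDF3-ADAR and 17 at 60.1% in YTHDF2-ADAR cells. With more sites, its score was higher in YTHDF3-ADAR cells, at 23.2, against 10.2 in YTHDF2-ADAR cells. CAMK2B, a calcium- and calmodulin-dependent kinase subunit, was higher in YTHDF3-ADAR cells, with 14 sites at 63.1%, against 5 at 29.6% in YTHDF2-ADAR cells.

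The enolase ENO2 had 11 sites in each construct, at 35.5% in YTHDF3-ADAR and 61.6% in YTHDF2-ADAR cells. APLP1, a relative of the amyloid precursor protein, had 17 sites at 29.0% in YTHDF3-ADAR and 12 at 57.1% in YTHDF2-ADAR cells, and GNAO1, the G protein alpha subunit of the o class, 16 at 25.9% in YTHDF3-ADAR and 8 at 38.5% in YTHDF2-ADAR cells. The score of GNAO1 was higher in YTHDF3-ADAR cells, at 4.15, against 3.08 in YTHDF2-ADAR cells, and that of APLP1 lower, at 4.92 against 6.86. On polysomes ENO2 stood at 31.8% in YTHDF3-ADAR and 49.5% in YTHDF2-ADAR cells. STK16, a serine/threonine kinase, was lower in YTHDF3-ADAR total RNA but not on polysomes, at 27.7% in YTHDF3-ADAR and 24.4% in YTHDF2-ADAR polysome RNA, and the aldolase ALDOC was likewise higher there. OFD1, a centriole protein and one of the 10 genes with the highest YTHDF3-ADAR values, was higher in YTHDF3-ADAR cells, at 56.5% over 14 sites in YTHDF3-ADAR and 16.1% over 13 sites in YTHDF2-ADAR cells.

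Levels of these RNAs were low, and many were higher in YTHDF3-ADAR cells. Their median level was 2.95 CPM per kilobase of exon, against 7.44 over all shared genes. ENO2 stood at 20.8, 34.2 and 34.2 CPM in YTHDF3-ADAR and 11.9, 4.67 and 9.52 CPM in YTHDF2-ADAR libraries, without overlap (log2 fold change 1.78 ± 0.38, edgeR adjusted p = 0.00432). GNAO1 stood at 21.8, 42.3 and 43.9 CPM in YTHDF3-ADAR and 13.8, 9.79 and 13.7 CPM in YTHDF2-ADAR libraries (1.53 ± 0.22, edgeR adjusted p = 0.000358). Of the 34 genes, edgeR called 14 higher in level and 0 lower, beside 15.2% higher and 7.57% lower of all 26804 genes tested. At an unadjusted p under 0.05 edgeR had 20 higher and 1 lower, and DESeq2 called 14 higher and 1 lower. Without YTHDF3-ADAR replicate 2 or 3, or without YTHDF2-ADAR replicate 2 or 3, the higher calls numbered 7. The part of RNA level in the editing of these genes was not tested.

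For 3 of the 10 genes with the highest YTHDF3-ADAR values, the YTHDF2-ADAR table held no total RNA score, so they have no ratio. NFKB2, a subunit of the NF-kappa-B factors, had 83.9% over 10 sites in YTHDF3-ADAR cells, and its polysome editing was 81.0% in YTHDF3-ADAR and 83.9% in YTHDF2-ADAR cells. PDE1B, a calmodulin-dependent phosphodiesterase, had 82.0% over 17 sites in YTHDF3-ADAR cells, and on polysomes 81.0% in YTHDF3-ADAR and 89.7% in YTHDF2-ADAR cells. SLC22A17, a member of the organic cation transporter family, had 48.2% over 16 sites in YTHDF3-ADAR cells, and on polysomes 41.6% in YTHDF3-ADAR and 64.0% in YTHDF2-ADAR cells. All 3 were thus lower in YTHDF3-ADAR cells on polysomes.

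Polysome RNA gave a like picture over all shared genes. Editing per site had a median of 1.58% in YTHDF3-ADAR and 1.15% in YTHDF2-ADAR cells, with a median ratio of 1.45 and 3143 of 4200 genes (74.8%) higher. At least a 2-fold higher value was found in 1040 genes (24.8%) and a 2-fold lower one in 254 (6.05%). Total and polysome RNA pointed the same way in 3008 of 3986 genes (75.5%), and in 1246 of 1427 (87.3%) with at least 5 sites in both. Most genes were higher in each RNA, which by itself makes many genes agree, and both readouts divide by the same number of sites. The log2 ratios in total and polysome RNA had a Pearson r of 0.38 across the 3986 genes. It was 0.40 across the 1427 with at least 5 sites in both. Of the 577 such genes at least 2-fold higher in total RNA, 540 were higher on polysomes, and 234 were at least 2-fold higher there. Among all 1446 genes with at least 5 sites in both, 87.2% were higher on polysomes. The median ratio of reads of the shared genes was 0.941 there, and the part of read depth in the editing values was not tested.

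Genes of the m6A pathway itself were edited in both lines. The list of readers takes in YTH genes, and in YTHDF3 and YTHDF2 an edit cannot be told apart from a transgene base. Of 12 shared m6A readers, 8 had more sites in YTHDF3-ADAR cells and 9 had higher editing per site, beside 81.3% and 77.6% of all shared genes, with a median of 1.21% in YTHDF3-ADAR and 0.893% in YTHDF2-ADAR cells and a median ratio of 1.33, beside 1.61. All 7 shared writers and erasers had more sites, and of the 5 with editing per site above 0 in both, 3 were higher and 2 lower, at a median ratio of 1.38. VIRMA, a scaffold of the m6A writer complex, had 22 sites in YTHDF3-ADAR and 2 in YTHDF2-ADAR cells, METTL3, its catalytic subunit, had 10 sites at 1.24% in YTHDF3-ADAR and 5 at 0.715% in YTHDF2-ADAR cells, and FTO, a demethylase, had 9 at 1.35% in YTHDF3-ADAR and 5 at 0.742% in YTHDF2-ADAR cells. The YTHDF2-ADAR score of VIRMA was listed at 0 in total RNA.

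Genes for deadenylation and decapping were nearer to equal per site at the median. Deadenylation and decapping genes had more sites in YTHDF3-ADAR cells in 17 of 19, beside 81.3% of all shared genes. Editing per site was higher in 11 of 18, beside 77.6% of all shared genes. Its median was 1.27% in YTHDF3-ADAR and 0.998% in YTHDF2-ADAR cells, with a median ratio of 1.15, beside 1.61 over all shared genes. CNOT2, a CCR4-NOT subunit, had 22 sites at 2.46% in YTHDF3-ADAR and 11 at 0.811% in YTHDF2-ADAR cells, and PUM2 38 at 1.84% in YTHDF3-ADAR and 11 at 0.998% in YTHDF2-ADAR cells. UPF2, of nonsense-mediated decay, had 21 sites at 3.34% in YTHDF3-ADAR and 1 at 0.913% in YTHDF2-ADAR cells. On polysomes UPF2 was lower in YTHDF3-ADAR cells, at 1.57%, against 2.19% in YTHDF2-ADAR cells. Of the 6 nonsense-mediated decay genes, 4 were higher per site and 2 lower in YTHDF3-ADAR total RNA. UPF1 was one of the lower ones, with 3 sites at 0.889% in YTHDF3-ADAR and 4 at 1.40% in YTHDF2-ADAR cells. CNOT2, PUM2 and UPF2 were named for their many sites, and their ratios of 3.03, 1.84 and 3.65 lay above 1.61. Among the 18 deadenylation and decapping genes, 7 were lower per site in YTHDF3-ADAR cells.

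RAB GTPases, the switches of vesicle traffic, had the highest median ratio of the 31 lists apart from the single ADAR gene. It was 2.20, with 26 of 27 genes higher in YTHDF3-ADAR cells and medians of 2.73% per site in YTHDF3-ADAR and 1.28% in YTHDF2-ADAR cells. RAB2A had 28 sites at 8.96% in YTHDF3-ADAR and 27 at 3.30% in YTHDF2-ADAR cells, and RAB6A 14 at 4.31% in YTHDF3-ADAR and 11 at 1.46% in YTHDF2-ADAR cells. The number of RAB sites differed less, with a median ratio of 1.5, against 2.00 over all shared genes.

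Nuclear-encoded respiratory chain subunits were similar, at 23 of 24 genes higher and a median ratio of 1.95. ATP5F1B, a subunit of ATP synthase, had 15 sites at 2.32% in YTHDF3-ADAR and 12 at 1.03% in YTHDF2-ADAR cells. SWI/SNF, CHD and INO80 remodellers were higher in 19 of 22, at 2.02, with SMARCA2 at 7.12% over 66 sites in YTHDF3-ADAR and 2.69% over 29 in YTHDF2-ADAR cells. SMARCE1 was among the 3 of these that were lower. Cullins and RING or HECT ubiquitin ligases were higher in 21 of 26, at 2.00, beside 77.6% and 1.61 over all shared genes.

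Other lists lay nearer to or below the values of all shared genes, a median ratio of 1.61 with 77.6% higher. SLC transporters were higher in 49 of 62, at a median ratio of 1.73, and translation initiation factors in 14 of 16, at 1.68. ZNF genes, which encode zinc-finger transcription factors, were higher in 36 of 54, at 1.25, and started from more editing per site, with medians of 2.44% in YTHDF3-ADAR and 1.93% in YTHDF2-ADAR cells. Histone methyltransferases and demethylases were higher in 15 of 21, at 1.29. Known natural targets of ADAR recoding were higher in 8 of 11, at 1.39, among them CYFIP2, a WAVE complex subunit, at 4.85% over 43 sites in YTHDF3-ADAR and 2.43% over 33 in YTHDF2-ADAR cells.

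Cytosolic ribosomal protein genes had medians of 1.21% per site in YTHDF3-ADAR and 2.87% in YTHDF2-ADAR cells, while their median ratio was 1.36 with 7 of 13 higher, so these measures differ in direction. Their median number of sites was 3 in YTHDF3-ADAR and 1 in YTHDF2-ADAR cells. RPL14 had 22 sites at 5.30% in YTHDF3-ADAR and 4 at 3.57% in YTHDF2-ADAR cells, and RPL37 had 7 at 0.852% in YTHDF3-ADAR and 1 at 2.65% in YTHDF2-ADAR cells.

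**Figure D5:**
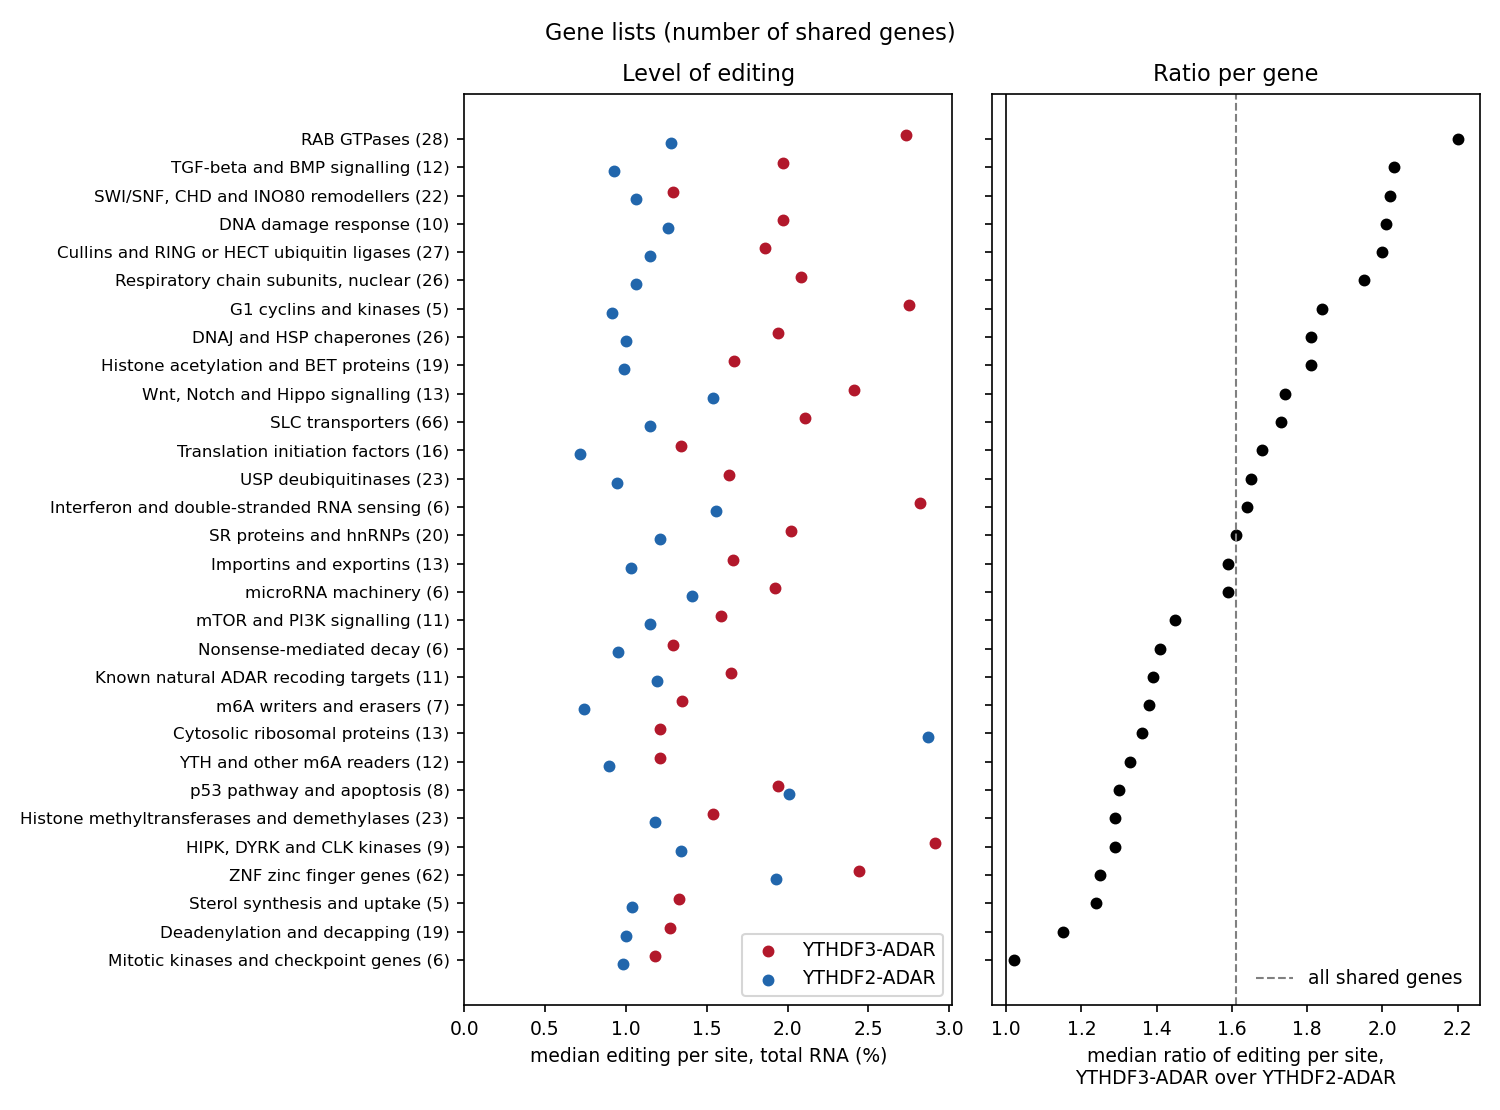
Left, median total RNA editing per site in percent for the shared genes of each list in YTHDF3-ADAR and YTHDF2-ADAR cells; right, the median ratio per gene, with a dashed line at the 1.61 of all shared genes and the number of shared genes in brackets. RAB GTPases are at the top with 2.20 and mitotic kinase and checkpoint genes at the bottom with 1.02 over 6 genes; the list with the single ADAR gene is not drawn.

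RNA levels of most shared genes did not pass the test between the lines. Of 4189 shared genes tested, edgeR called 668 higher (15.9%) and 397 lower (9.48%) in YTHDF3-ADAR cells, beside 15.2% and 7.57% of all genes tested, and 39 shared names had no test. With DESeq2 size factors the split was 573 higher and 520 lower, without normalization factors it was 1254 and 61, and the last setting put the median log2 fold change of all genes at 0.20 in place of 0.02. Single libraries moved these counts: 962 were higher and 965 lower without YTHDF3-ADAR replicate 1, and 576 and 270 without YTHDF2-ADAR replicate 1. They were 295 and 112 without YTHDF3-ADAR replicate 2, 314 and 112 without replicate 3, 337 and 165 without YTHDF2-ADAR replicate 2, and 384 and 213 without its replicate 3. The median ratio of editing per site was 1.27 for genes called higher, 1.66 for those not called and 1.85 for those called lower.

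After ADARB1, APOE and FOXO4 had the largest called rises in level among shared genes whose log2 CPM averaged 2 or more, followed by EEF1A2 with 9 sites in YTHDF3-ADAR and 8 in YTHDF2-ADAR cells. APOE, a lipid carrier, stood at 7.80, 49.1 and 50.1 CPM in YTHDF3-ADAR and 3.83, 3.74 and 3.35 CPM in YTHDF2-ADAR libraries (log2 fold change 3.29 ± 0.59, edgeR adjusted p = 0.00151), with 2 sites in each at 3.83% in YTHDF3-ADAR and 12.1% in YTHDF2-ADAR cells. FOXO4, a forkhead transcription factor, stood at 74.2, 164 and 144 CPM in YTHDF3-ADAR and 18.8, 17.1 and 17.5 CPM in YTHDF2-ADAR libraries (2.84 ± 0.24, edgeR adjusted p = 2.16e-06), with 2 sites at 0.565% in YTHDF3-ADAR and 1 at 1.96% in YTHDF2-ADAR cells. In both genes the groups did not overlap, and replicate 1 was the lowest of the YTHDF3-ADAR group.

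SLC1A3, a glutamate transporter, was lower in level and higher in editing. It stood at 32.7, 17.6 and 17.7 CPM in YTHDF3-ADAR and 47.5, 57.3 and 53.4 CPM in YTHDF2-ADAR libraries (-1.22 ± 0.27, edgeR adjusted p = 0.00571), with 29 sites at 8.47% in YTHDF3-ADAR and 22 at 1.71% in YTHDF2-ADAR cells. TJP1, a tight junction scaffold, stood at 44.5, 23.1 and 30.7 CPM in YTHDF3-ADAR and 68.0, 90.0 and 85.6 CPM in YTHDF2-ADAR libraries (-1.31 ± 0.20, edgeR adjusted p = 0.000484), with 14 sites at 1.93% in YTHDF3-ADAR and 8 at 0.679% in YTHDF2-ADAR cells. The lowest fold changes of MTRNR2L12 and the readthrough gene HSPE1-MOB4 are uncertain, since both share sequence or exons with other genes.

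The YTHDF1-ADAR table places the difference among the 3 constructs. In the 3817 genes listed in all 3, YTHDF3-ADAR cells had a median of 8 sites edited at 1.97% per site. The medians were 5 sites and 1.86% for the YTHDF1-ADAR construct, and 3 sites and 1.22% for YTHDF2-ADAR. YTHDF3-ADAR had the most sites in 2448 genes, YTHDF1-ADAR in 738 and YTHDF2-ADAR in 90, with ties in 541. The number of sites ran in the order YTHDF3-ADAR, YTHDF1-ADAR, YTHDF2-ADAR in 1292 of the 3817.

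Genes outside the comparison had few sites. The 2814 names in the YTHDF3-ADAR table but not in the YTHDF2-ADAR one had a median of 2 sites and 1.49% per site. The 319 in the YTHDF2-ADAR table but not in the YTHDF3-ADAR one had a median of 1 site and 1.26% per site. Medians per site of the shared genes were 1.90% in YTHDF3-ADAR and 1.19% in YTHDF2-ADAR cells.

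The libraries carried the markers of the labelled line. Of 8 HEK293T genes, 7 were above 1 CPM in all 6 libraries, and CD24 ranged down to 0.595 CPM. Blood and liver markers stayed below 1 CPM in all 6. Of 4 fibroblast markers COL1A1 was above 1 CPM in each, at 5.76 to 34.5 CPM, and COL3A1 reached 1.47 CPM.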

How the data were processed

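Total RNA of 3 YTHDF3-ADAR and 3 YTHDF2-ADAR libraries was compared. The build GRCh38 (hg38) and the tools STAR 2.7.7, DESeq2 and featureCounts 2.0.1 come from the submitters' processing notes, without their settings. Site calling, strand setting and annotation release were not given in the sources used here. As deposited, the table of gene counts holds raw counts per gene, with 60675 human gene rows and 1 row that names no human gene, which was left out. The authors' editing tables hold the number of sites and a score per gene and construct, pooled over replicates. The deposited change column, headed as log2, is the natural log of an odds ratio: score divided by sites, polysome over total RNA, recomputed within 5.62e-08. A deposited table with a signal column (baseMean) supplied gene names and classes.

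Tables were joined on gene name. Ratios used values above 0 in both constructs, and a fold of 2 was taken as a difference. Counts were fitted in R 4.3.3 with edgeR 4.0.16 over 18 libraries in 6 groups: filterByExpr with a minimum count of 10 (26804 genes), TMM factors, a quasi-likelihood test and a threshold of 0.05 on the Benjamini-Hochberg adjusted p. The standard error of a log2 fold change was taken as its size over the root of F. The fit was tested on simulated data. No 2 libraries of a group agreed within sampling noise. Counts without molecular identifiers give counting error only.

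Named genes are the 10 shared genes with most sites and, given 5 sites in both constructs, with the highest editing per site in each construct, the 10 highest and lowest ratios of each measure, the 5 highest and lowest called level changes at mean log2 CPM from 2 up, up to 4 of each of 31 lists by sites, and the YTHDF and ADAR genes. Members and lists were chosen with earlier results of these data known. Alternatives changed the site minimum, genes joined, fold, normalization, filter, tool, libraries and replicate block. Values of a few genes are not reported here. Python 3.11.15 with pandas 2.3.3 and numpy 2.4.6 joined the tables.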

Additional observations from a re-analysis of the deposited data

How the results depend on the processing

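The median log2 ratios of YTHDF3-ADAR over YTHDF2-ADAR stayed above 0 in every alternative run. With at least 3, 5 and 10 sites in both constructs they were 0.74, 0.67 and 0.49 for the number of sites (1.00 over all shared genes), 1.56, 1.51 and 1.45 for the score (1.63), and 0.82, 0.86 and 0.94 for editing per site (0.69). Polysome editing per site had 0.66 with at least 5 sites (0.53). Genes also in the YTHDF1-ADAR table gave 1.65 for score and 0.71 per site, and genes of like level 1.71 and 0.74. The odds ratio gave 0.70 per site. Genes with at least as many YTHDF2-ADAR reads, an alternative chosen after seeing the data, gave 2.06 for score and 0.92 per site. A fold of 1.5 gave 144 genes lower in sites, 227 in score and 383 per site, and 2197 higher per site.

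For RNA level, 6113 genes were called over all 26804 tested, and 1496 when the 6 compared libraries were fitted alone. Leaving out 1 library gave 2514 to 11327 calls over all genes, 295 to 962 shared genes higher and 112 to 965 lower. Shared genes called higher were 1254 without normalization factors, 428 without the filter and 195 with the 6 libraries alone; those lower were 61 without normalization factors, 59 with the 6 libraries alone and 617 with DESeq2. The cause of these shifts was not tested, and fewer libraries leave fewer degrees of freedom.

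Replicate numbers did not pair the libraries across constructs: same-numbered libraries had correlations of -0.35, -0.59 and 0.15 after removal of group means, and no rule in the labels ties them. Libraries with other numbers did vary together across constructs. The highest correlation was 0.60, between YTHDF3-ADAR replicate 2 and YTHDF2-ADAR replicate 1, and its cause was not tested. With the replicate block 6730 genes were called, 693 shared genes higher and 498 lower. Among refits of single named genes' levels 332 kept their side of the threshold, 75 lost the call, 1 gained it (YTHDF1, at -0.45 without YTHDF3-ADAR replicate 1) and none changed sign. A join on gene identifiers was not run, since the editing tables hold names, and no replicate can be left out of pooled editing values. Their depth is unknown, which limits genes with few sites most.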

Other observations

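The remaining gene lists showed the same direction at the median, with ratios of editing per site (YTHDF3-ADAR over YTHDF2-ADAR) above 1. Over all shared genes the median ratio was 1.61 and 77.6% were higher per site, and several lists had shares near that. TGF-beta and BMP signalling genes were higher in 9 of 12, at 2.03, with SMAD4, the common mediator SMAD, at 1.75% over 15 sites in YTHDF3-ADAR and 0.779% over 5 in YTHDF2-ADAR cells. DNA damage response genes were higher in 8 of 10, at 2.01, with TP53BP1, which acts at double-strand breaks, at 1.79% over 22 sites in YTHDF3-ADAR and 1.02% over 9 in YTHDF2-ADAR cells. DNAJ and HSP chaperone genes were higher in 18 of 23, at 1.81. All 26 that were shared had more sites in YTHDF3-ADAR cells, beside 81.3% of all shared genes. Histone acetylation and BET genes were higher in 15 of 18, at 1.81, Wnt, Notch and Hippo genes in 10 of 13, at 1.74, USP deubiquitinases in 18 of 22, at 1.65, and SR proteins and hnRNPs in 14 of 20, at 1.61.

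Importins and exportins were higher in 10 of 13, at 1.59, microRNA machinery genes in 5 of 6, also at 1.59, mTOR and PI3K genes in 10 of 11, at 1.45, and nonsense-mediated decay genes in 4 of 6, at 1.41. HIPK, DYRK and CLK kinases were higher in 7 of 9, at 1.29. The p53 and apoptosis list was even, with 4 of 8 higher at 1.30, and its median level of editing was 1.94% in YTHDF3-ADAR and 2.01% in YTHDF2-ADAR cells, so the 2 summaries differ in direction. Mitotic kinase and checkpoint genes were also even, with 3 of 6 higher at 1.02. The smallest lists were G1 cyclins and kinases (3 of 5, 1.84), sterol synthesis and uptake (4 of 5, 1.24) and interferon and double-stranded RNA sensing (3 of 5, 1.64). DROSHA, the nuclear microRNA processing enzyme, had 30 sites at 2.25% in YTHDF3-ADAR and 23 at 1.04% in YTHDF2-ADAR cells.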
